A study of Homo sapiens with 4 samples.

Results

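MEIS sites at promoters were the reproducible binding sites of MEIS1 and MEIS2 whose summit, the base of highest signal, lay within 1 kb of the transcription start site (TSS) of the canonical transcript of a protein-coding gene. The rule selected 240 of 5169 reproducible sites, or 4.64% (95% Wilson interval 4.10 to 5.25), and the other 4929 sites served for comparison. These 240 sites lay within 1 kb of the TSS of 260 genes, which is 1.31% of the 19881 protein-coding genes considered, and 20 sites had more than 1 such gene. The members were set by position alone, so that strength and sequence could be compared with the other sites. Sequence traits common to promoters in general follow from the rule, and for these the difference from the other sites is a description.

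The sites come from chromatin immunoprecipitation followed by sequencing (ChIP-seq) in hNSC, a commercial culture of human neural stem cells, left untreated. The series holds 2 MEIS1/2 ChIP replicates from separate batches of cells processed in parallel and 2 Input samples of chromatin without antibody, which set the background of the peak calls and have no values of their own here. The mixture combined an antibody against the A isoforms (protein forms) of MEIS1 and MEIS2 with an antibody against MEIS1. Binding at a site may thus be by either protein, and no antibody was against MEIS2 alone. No expression was measured in these samples, so the neural stem cell label could not be checked against marker genes. Peak calling gave 36796 peaks in replicate 1 and 47449 in replicate 2, and the reproducible list keeps sites with an irreproducible discovery rate (IDR) of at most 0.01, the estimated share of sites that do not repeat between replicates. The number of reads behind each value is unknown.

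MEIS1 and MEIS2 are homeodomain proteins of the TALE class, which carry an extra loop in the homeodomain and act in development of the nervous system, the eye, the limb and blood. They bind DNA alone at a short core, TGACAG, or beside a PBX protein, another TALE homeodomain protein. In the second case the PBX and MEIS cores are joined, as TGAT or TGAG directly followed by TGACAG, which is called the PBX-MEIS composite below.

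The following sequences show the composite, which was present at 43 of the 240 promoter sites, and the MEIS core without it. All were read 5′ to 3′ from GRCh37 on the strand that holds the motif, with the motif in capitals. The first set shows the composite at genes of the TALE class and of the Wnt pathway, where TLE1 and TLE4 share the 10 bases before the composite and MEIS1 and MEIS2 share the 10 bases after it.
TLE1, chr9:84304895-84304924, minus strand: cacgttacttTGATTGACAGcccagccccg
TLE4, chr9:82186366-82186395, plus strand: cacgttacttTGATTGACAGctgaacaaat
MEIS1, chr2:66662593-66662622, plus strand: acctcgcctgTGATTGACAGctggagtggc
MEIS2, chr15:37392132-37392161, minus strand: ttccgggcttTGATTGACAGctggagtggc
TCF7L2, chr10:114710057-114710086, minus strand: aaggcggcgcTGATTGACAGatagaaaaag

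The second set shows the composite at genes of the ZNF name series, which encode zinc finger proteins, to let the eye follow what their promoters have in common. ZNF93, ZNF90, ZNF66, ZNF730, ZNF195 and ZNF799 were added after their values were seen.
ZNF100, chr19:21950483-21950512, plus strand: tgtcaggcttTGAGTGACAGaagatgtgat
ZNF85, chr19:21105925-21105954, minus strand: tttcaggcccTGAGTGACAGaagatgtgat
ZNF90, chr19:20188676-20188705, minus strand: cctcagtcccTGAGTGACAGaagatgtgat
ZNF66, chr19:20958973-20959002, minus strand: cctcagacacTGAGTGACAGaagatgtgat
ZNF93, chr19:20011620-20011649, minus strand: cctcaggaccTGAGTGACAGaagatgtgat
ZNF431, chr19:21324705-21324734, minus strand: tctcaggcccTGAGTGACAGaagatgcgaa
ZNF253, chr19:19976536-19976565, minus strand: ccccagccgcTGAGTGACAGatgtgatcag
ZNF730, chr19:23299695-23299724, minus strand: cctcaggcccTGAGTGACAGatgtgatcag
ZNF195, chr11:3400501-3400530, plus strand: cctcaggcccTGAGTGACAGgagctgtaat
ZNF799, chr19:12512140-12512169, plus strand: cctcgtggacTGATTGACAGaagaagcgat

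The third set shows strong promoter sites that hold the MEIS core without an exact composite. At PKNOX2 and SPPL3 the bases directly before the core, TGAA and TGAC, differ from TGAT or TGAG at 1 letter.
PKNOX2, chr11:125034666-125034695, minus strand: catggaaatgaaTGACAGcttacctgatgc
SPPL3, chr12:121342488-121342517, minus strand: tgacaggttgacTGACAGttggggggcccg
ZBTB18, chr1:244214522-244214551, plus strand: tgtcagagcagcTGACAGcctgccatccct
SOX2, chr3:181429682-181429711, plus strand: ccatttattcccTGACAGcccccgtcacat

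Most promoter sites lay just upstream of the gene. Of the 240 summits, 192 (80%) were upstream of the nearest TSS, 24 lay in an intron, 21 in a 5′ UTR exon, and 1 each in a coding exon (ODAD4), in a 3′ UTR exon (H2BC21) and beyond the end of a short histone gene (H2BC4), the last 3 named after their values were seen. The median position was -147 bp from the TSS, where negative values are upstream, and 114 summits lay within 200 bp of it. Position is what the rule used, so these counts are a description. The sites closest to the inner side of the limit were those of SUGP2 (+969 bp, fold enrichment 4.84 and 9.08 in replicates 1 and 2), MRO (-968 bp, 6.80 and 19.9) and FBLN1 (+968 bp, 4.68 and 7.71). On the outer side, the closest were those of STON1-GTF2A1L (-1031 bp, 8.49 and 7.43), SERPINB6 (+1056 bp, 5.02 and 19.2) and KIF21A (-1072 bp, 8.58 and 9.08).

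**Figure D1:**
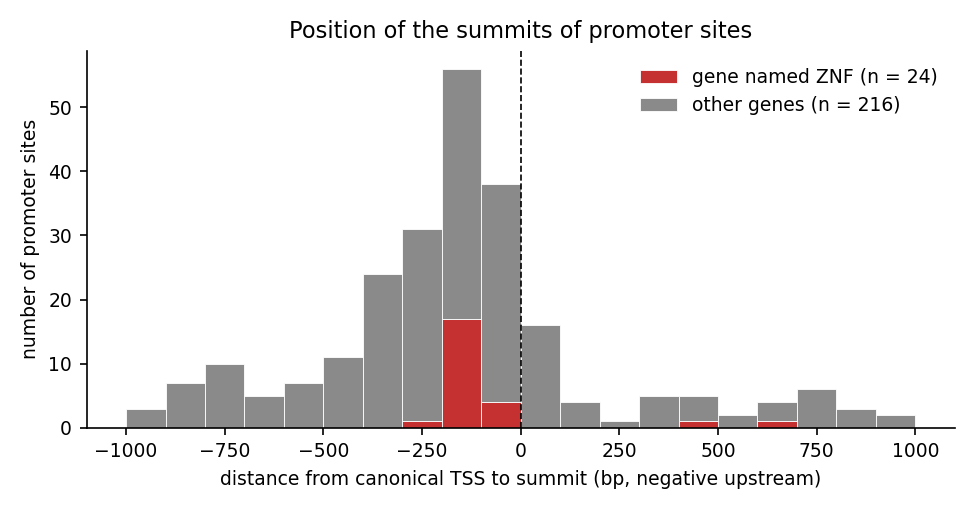
Number of promoter sites (vertical axis) by the distance from the canonical TSS to the summit in bp (horizontal axis, bins of 100 bp), with sites at genes named ZNF in red and the others in grey. Summits pile up in the first 200 bp upstream, where most of the 24 ZNF sites lie.

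Promoter sites were weaker than the other reproducible sites. Strength is given as fold enrichment over input at the peak in each replicate and as the list's -log10 p, which matched the lower of the values in the replicates, within 1%, at 239 of the 240 sites. The median -log10 p was 24.2 at promoter sites, 26.7 at the 691 sites between 1 and 20 kb from a TSS, and 29.5 at all other sites. Of the promoter sites, 95 (39.6%) lay above the median strength of the list, compared with 50.5% of the others (two-sided Fisher's exact test, OR = 0.643 [0.488 to 0.845], p = 0.00116). Ranked by fold enrichment instead, the same sites gave 40.8% and 50.4% in replicate 1 (OR = 0.678) and 33.3% and 50.8% in replicate 2 (OR = 0.485). A separate list of equal length, made of the strongest peaks of replicate 1 alone, had 302 promoter peaks. There the shares above its own median were 29.5% and 51.2% (OR = 0.398). Against the sites 1 to 20 kb away alone, the difference in -log10 p did not pass the test (OR = 0.787 [0.576 to 1.07], Fisher's exact test, p = 0.131). The share of promoter sites was 2.32% in the strongest 20% of the list and 6.0% in the weakest 20%, and none of the 100 strongest sites was at a promoter. Tests over sites describe this list and its libraries, and intervals cover the counting of sites only.

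The replicates ranked promoter sites in a similar way, with higher enrichment in replicate 2. Fold enrichment was higher in replicate 2 at 233 of 240 promoter sites (97.1%) and at 97.4% of the other sites. The methods give alternative washes of the immunoprecipitate without naming the replicate that received each, and their part in this difference was not tested. It ranged from 3.14 to 33.1 (median 5.93) in replicate 1 and from 5.85 to 50.1 (median 9.08) in replicate 2. Spearman's correlation of fold enrichment between the replicates was 0.65 across the 240 promoter sites and 0.740 across the others, given as a description since all sites share the same libraries and were kept for repeating. Summits of the replicates lay within 50 bp of each other at 84.2% of promoter and 84.5% of other sites (OR = 0.975 [0.680 to 1.43], Fisher's exact test, p = 0.856), with a median gap of 11 bp in both.

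**Figure D2:**
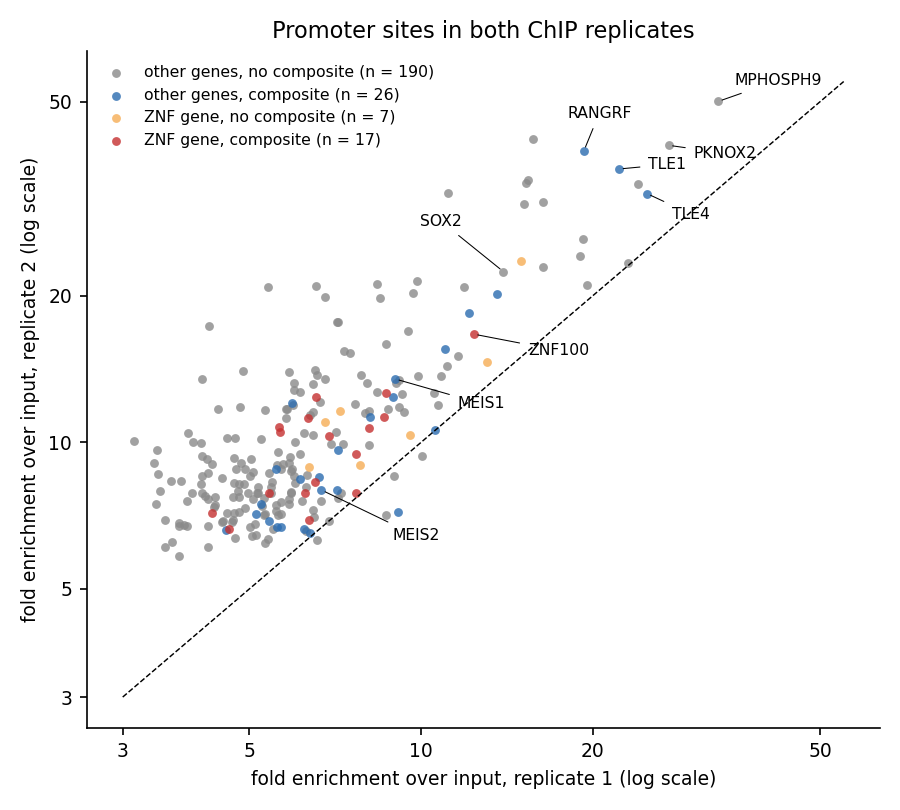
Fold enrichment over input of each promoter site in replicate 1 (horizontal, log scale) and replicate 2 (vertical, log scale). The dashed line marks equal values, colours mark genes named ZNF and windows with the PBX-MEIS composite, and 233 of 240 points lie above the line.

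The strongest promoter sites lay at genes of several kinds. The site of MPHOSPH9, which encodes a centrosomal protein, had fold enrichments of 33.1 and 50.1 and a -log10 p of 317. It lay at -141 bp, with the TSS of MTRFR also within 1 kb, and its 500 bp window held no TGACAG. PKNOX2, a TALE gene related to MEIS1, followed with 27.1 and 40.7 at -6 bp. TLE1 and TLE4, paralogous corepressors of the Groucho family, had 22.2 and 36.4 at -447 bp and 24.9 and 32.4 at -499 bp. RANGRF had 19.3 and 39.6 at -213 bp, with a composite that followed repeated TGAT. SPPL3, which encodes a protease within the membrane, had 24.0 and 33.9, and ZBTB18, a transcriptional repressor of brain development, had 15.4 and 34.6. All of these values lay above the upper quartile of promoter sites in both replicates, which was 7.88 and 12.6. The sites were named for their high -log10 p, so this is a description.

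The other sites among the 10 strongest were those of ZNF608 (15 and 23.6, in the first intron at +625 bp), BCAS3 (16.4 and 22.9) and the gene ENSG00000289281 (16.4 and 31.1). Of the 24 sites at ZNF genes described below, those of ZNF608 and ZNF484, the latter named after its values were seen, had no TGACAG in the window and a summit downstream of the TSS.

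The PBX-MEIS composite was more frequent at promoter sites than at other sites. It was present in the 500 bp window centred on the summit at 43 of 240 promoter sites (17.9% [13.6 to 23.3]), compared with 212 of 4929 other sites (4.30%), 4.63% of the sites 1 to 20 kb from a TSS, and 0.755% of 500 bp windows centred on all 19881 canonical TSS. The difference from the other sites passed the test (OR = 4.85 [3.31 to 7.0], Fisher's exact test, p = 3.08e-14). Beside this exact test, a Mantel-Haenszel comparison of sites of like GC content also passed the threshold (OR = 3.42, p = 5.11e-09). Without the 24 sites at ZNF genes it was present at 26 of 216 promoter sites (12%, OR = 3.04, Fisher's exact test, p = 5.25e-06). At 39 of the 43 sites the composite lay within 50 bp of the summit, at a median distance of 10 bp.

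The MEIS core was also more frequent at promoter sites, but this difference did not hold in every comparison. TGACAG was present at 158 of 240 promoter sites (65.8% [59.6 to 71.5]) and 57.9% of the others (OR = 1.40 [1.06 to 1.86], Fisher's exact test, p = 0.0157), against 21.1% of all promoter windows. With GC content held alike the odds ratio was 1.13 [0.839 to 1.53] (Mantel-Haenszel test, p = 0.414), and without the ZNF sites it was 1.24 (Fisher's exact test, p = 0.159), so this call was lost in both. Promoter sites did hold the core more often than the 1310 weaker promoter peaks found in both replicates but outside the list (48.9%, OR = 2.01 [1.50 to 2.72], Fisher's exact test, p = 1.57e-06). Of 212 occurrences of TGACAG in promoter windows, 147 (69.3%) lay within 50 bp of the summit, compared with 54.4% at other sites (OR = 1.90 [1.40 to 2.60], Fisher's exact test, p = 1.91e-05). Over all promoter sites, 94 of 212 occurrences (44.3% [37.8 to 51.1]) were on the strand of the gene, and no preference passed the test (two-sided exact binomial test, p = 0.114). This test and the one of distance to the summit count occurrences as separate, though some windows held several. Both also pool the ZNF promoters described below with the rest.

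Genes named ZNF made up a block of promoter sites with the composite. Many ZNF genes on chromosome 19 arose by duplication and encode DNA-binding proteins with a KRAB repression domain. Of 511 ZNF genes, 24 (4.70%) had a site, beside 1.31% of all genes. Of these 24 sites, 16 lay on chromosome 19, which held 13.3% of promoter sites, 0.710% of other sites and 7.40% of canonical TSS, and where 48.1% of the ZNF genes lie.

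The composite was present at 17 of the 24 ZNF sites (70.8%), the site shared by ENSG00000268870 and ZNF443 included. In all 17, the composite nearest to the summit was on the strand opposite to the gene, between -140 and -65 bp from the TSS (median -118 bp). At the 26 other promoter sites with the composite, 16 had it on the strand of the gene, and its position ranged from -644 to +603 bp. The PBX part was TGAG in 15 of the 17 ZNF sites and in 11 of the 26 others. The 20 bases around the composite differed at a median of 9 positions between pairs of ZNF sites and at 15 between pairs of the others. A stretch of 10 bases before or after the composite was identical in 17 pairs of genes, of which 15 were pairs of ZNF sites and the others were TLE1 with TLE4 and MEIS1 with MEIS2. ZNF100, ZNF85, ZNF90, ZNF66 and ZNF93 shared the same 10 bases after the composite.

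**Figure D3:**
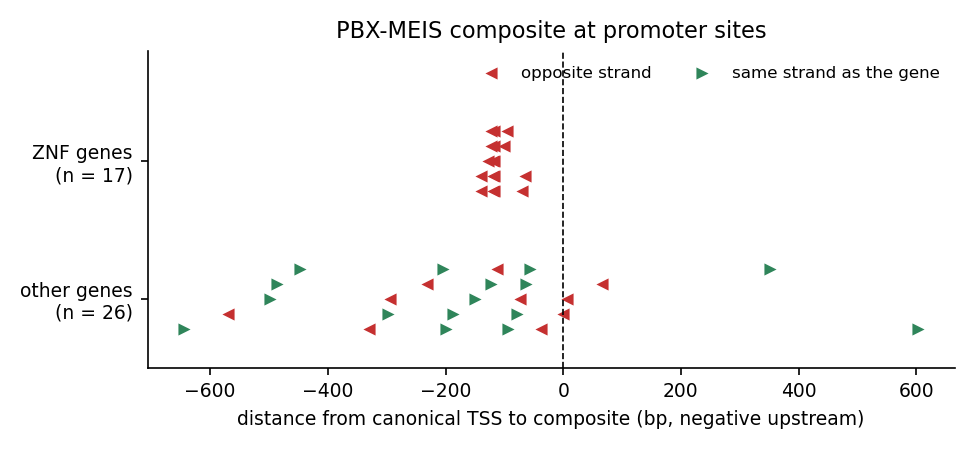
Position of the PBX-MEIS composite nearest to the summit, as distance from the canonical TSS in bp (horizontal axis), at the 17 ZNF sites and the 26 other promoter sites that hold it. Triangles give the strand relative to the gene: all ZNF composites are on the opposite strand, between -140 and -65 bp, and the others are on both strands. Height within a row only separates the points.

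ZNF100 had the highest enrichment among the ZNF sites with the composite, with 12.4 and 16.7 in replicates 1 and 2. The other named ones, in no order of enrichment, were ZNF695 with 8.69 and 12.6, ZNF431 with 6.91 and 10.3, ZNF85 with 8.12 and 10.7, ZNF253 with 6.55 and 12.4, and ZNF440 with 8.60 and 11.3. The lowest of the ZNF sites in replicate 2 was that of ZNF93, with 4.61 and 6.64, named after its values were seen. All 24 ZNF sites were higher in replicate 2, as were 97.1% of all promoter sites, and the groups with and without the composite overlapped. The 24 sites had a median -log10 p of 30.9 (range 16.2 to 139), compared with 23.7 at the 216 other promoter sites.

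The CCAAT box, searched as CCAATNNG and bound by the general promoter factor NF-Y, was in the window of 22 of the 24 ZNF sites (91.7%). This compares with 33.3% of the other promoter sites and 30.3% of the TSS windows of all ZNF genes. These promoters are paralogous, and the authors kept only reads of high mapping quality. What this filter did to the values at these promoters was not tested.

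Read from the promoter side, promoters with the composite had the highest share with a site. Of 150 canonical TSS windows with the composite, 36 had a reproducible site within 1 kb (24.0% [17.9 to 31.4]). The share was 1.95% of the 4050 windows with TGACAG but no composite and 0.925% of the 15681 windows with no TGACAG. Among ZNF genes, 17 of 52 promoters with the composite had a site (32.7% [21.5 to 46.2]), compared with 7 of 459 without it (1.53%). Among all other genes, 19 of 98 with the composite had one (19.4% [12.8 to 28.3]), compared with 1.13% without.

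Counting peaks below the reproducibility threshold as well raised these shares. A peak of any strength was present in both replicates at 80.8% of ZNF promoters with the composite, 49.0% of other promoters with it, and 9.08% of all promoters. In the 52 ZNF promoters the composite occurred 56 times, 55 of them on the strand opposite to the gene, with a median position of -118 bp. In the 98 other promoters it occurred 102 times, with 49 on the opposite strand.

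**Figure D4:**
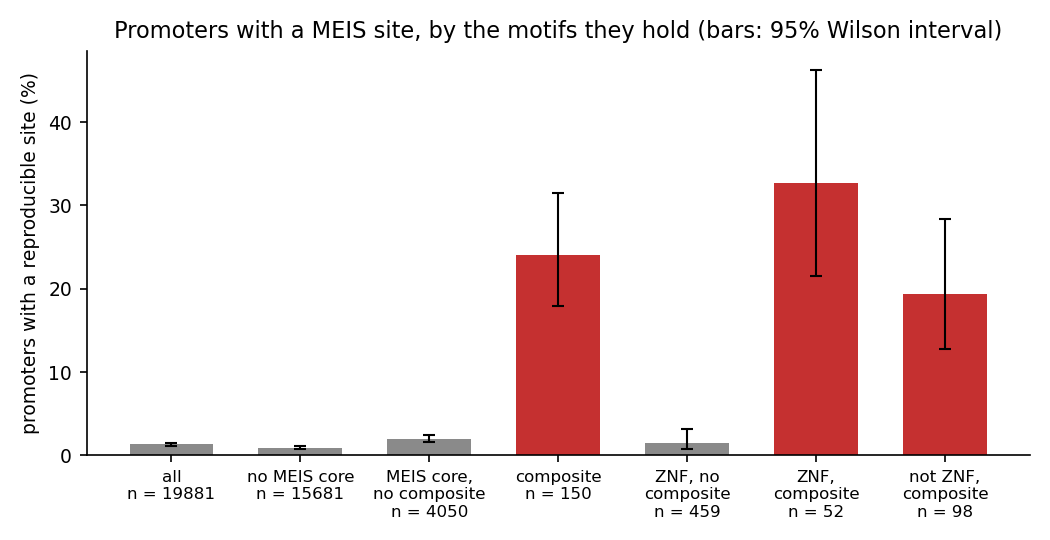
Share of protein-coding promoters with a reproducible MEIS site within 1 kb (vertical axis, %), grouped by the motifs in the 500 bp around the TSS, with 95% Wilson intervals. The MEIS core is TGACAG, and the groups with the composite, in red, reach 19.4% to 32.7%, compared with 1.31% of all promoters.

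Part of the promoter sites without TGACAG held a near match to the composite. Of these 82 sites, 20 (24.4%) had a sequence that differed from the composite at 1 of its 10 letters, compared with 10.8% of the 2075 other sites without TGACAG and 3.21% of promoter windows without it. This count was chosen after the sequences were seen and was not tested. The median -log10 p was 23.4 at promoter sites without TGACAG and 27.7 at those with the composite.

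Apart from MEIS motifs, promoter sites held the motifs of general promoter factors and fewer of those of SOX, TEAD and AP-1 proteins. Of 21 motifs searched on both strands, the share differed for 14, with 9 higher and 5 lower at promoter sites (Fisher's exact test, Benjamini-Hochberg adjusted p below 0.05). With GC content held alike 12 differed, of which 9 had been called before with the same direction.

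The GC box (GGGCGG), bound by SP and KLF proteins, was present at 63.3% of promoter sites and 7.14% of others (OR = 22.4, adjusted exact p = 1.01e-98), and at 69.6% of all promoter windows. The NF-Y motif was present at 39.2% and 13.5% (OR = 4.13, adjusted exact p = 7.29e-21) and at 19.3% of all promoters. The ETS motif (CCGGAAG) was present at 18.8% and 1.89% (OR = 12, adjusted exact p = 2.25e-26) and at 16.9% of all promoters. GC box and ETS shares at promoter sites were thus near those of promoters in general, and the NF-Y share was above it. The rule chose sites near a TSS, so the GC box and ETS differences from the other sites are a description. Among the weaker promoter peaks, NF-Y was at 31.9%, GC box at 65.2% and ETS at 21.2%. Without the 24 ZNF sites, NF-Y was at 33.3% of promoter sites, near its share at the weaker peaks.

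The CRE (TGACGTCA, 2.92% and 0.223%) and the YY1 motif (AAGATGGC, 5.0% and 1.68%) were also higher with and without the GC comparison, at 2.82% and 5.32% of all promoters. NRF1 (GCATGCGC, 2.92% and 0.325%, all promoters 4.64%) and the E-box CACGTG of MYC and USF (9.58% and 4.81%, all promoters 11%) were higher in the direct comparison only. ZNF143 (ACTACAA, 6.67% and 6.13%, all promoters 3.85%) was higher only with GC content held alike.

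The SOX, TEAD and AP-1 motifs were less frequent at promoter sites. The SOX motif (CATTGT) was present at 18.3% of promoter and 41.0% of other sites (OR = 0.324, adjusted exact p = 1.39e-12), the TEAD motif (GGAATG) at 24.6% and 38.8% (OR = 0.514, adjusted exact p = 2.20e-05), and the AP-1 motif (TGANTCA) at 9.17% and 19.6% (OR = 0.413, adjusted exact p = 5.92e-05). All of these were also lower with GC content held alike. They were present at 10.9%, 17.5% and 7.42% of all promoters. The homeodomain motif TAATTA (12.1% and 18.5%, all promoters 4.16%) and the TATA box TATAAAA (7.5% and 15.8%, all promoters 4.55%) were lower only in the direct comparison, and their direction turned when GC content was held alike (OR = 1.46 and 1.31).

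The E-box CAGCTG of proneural factors (32.1% and 34.3%, all promoters 28.2%) and the RFX motif GTTGCC (13.8% and 17.6%, all promoters 19.5%) were lower only with GC content held alike. No call was made for PBX-HOX (TGATTGAT, 3.75% and 3.04%, all promoters 0.594%), FOX (TGTTTAC, 8.33% and 7.75%, all promoters 3.22%), NFI (TTGGCA, 28.8% and 27.8%, all promoters 15.2%) or the POU octamer (ATGCAAAT, 4.17% and 5.82%, all promoters 1.83%). The composite always contains TGACAG and can overlap TGATTGAT. CAGCTG overlaps the MEIS core wherever CTG follows it, as in the sequences of TLE4, MEIS1 and MEIS2. These motifs are therefore not separate observations. A match describes the letters in the window and does not show that the factor was bound. Windows of all promoters were centred on the TSS and those of sites on the summit, so their shares cover unlike positions.

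**Figure D5:**
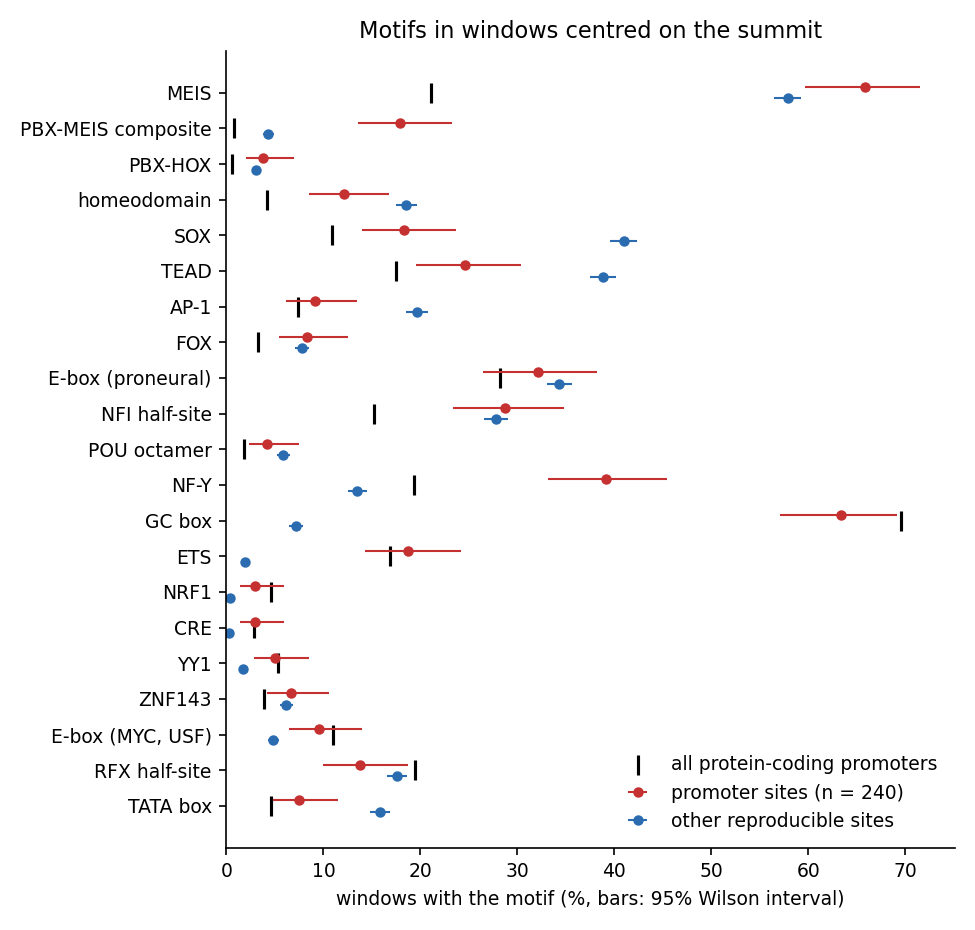
Share of 500 bp windows centred on the summit that hold each motif (horizontal axis, %), at promoter sites (red) and other reproducible sites (blue) with 95% Wilson intervals, and in windows centred on all protein-coding TSS (black ticks). The MEIS core, the composite and NF-Y lie above all promoters at promoter sites, and SOX, TEAD and AP-1 lie below the other sites.

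Promoter sites also differed in base composition. Windows rich in CpG, with a GC content of at least 50% and an observed over expected CpG ratio of at least 0.6, made up 50.8% of promoter sites and 1.04% of other sites (OR = 98.4 [66.9 to 147], Fisher's exact test, p = 2.44e-135). The mean GC content was 54.0% and 42.5%. The rule chose sites near a TSS, where CpG-rich windows are common, so these differences are a description. CpG-rich windows made up 67.7% of the windows centred on all canonical TSS and 65.4% of the weaker promoter peaks, both above the share at promoter sites. The former are centred on the TSS, and the windows of sites and weaker peaks on the summit. Among the sites of named genes, those of MPHOSPH9, PKNOX2, TLE1, TLE4 and SOX2 were CpG-rich, and those of MEIS1 and MEIS2 were not.

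Genes of the TALE class were among those with a site, at 4 of 19 genes on their list (21%), beside 1.31% of all genes. Besides PKNOX2, they included MEIS1, with fold enrichments of 9.0 and 13.5 at +341 bp in the 5′ UTR, and MEIS2, with 6.69 and 7.98 at +566 bp in the 5′ UTR. MEIS1 and MEIS2 held the composite, and PKNOX2 held the core without an exact composite. MEIS1 lay above the promoter median in both replicates, and MEIS2 above it in replicate 1 and below it in replicate 2.

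The Wnt pathway list had sites at 4 of 62 genes (6.45%), beside 1.31% of all genes. TLE1 and TLE4 are described above. TCF7L2, an HMG box factor that carries β-catenin to DNA, had 8.13 and 11.3 at +64 bp in the 5′ UTR with a composite, and LEF1, of the same family, had 4.35 and 7.43 at -529 bp with the core only.

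Among other transcription factors of neural stem cells, SOX2, which maintains the stem cell state, had 13.9 and 22.4 at +14 bp in the 5′ UTR. The related SOX5 had 5.60 and 9.54 at -713 bp, and these were 2 of 19 SOX genes, beside 1.31% of all genes. The homeobox genes POU3F3 (5.98 and 13.2 at -107 bp) and SIX3 (6.80 and 13.5 at -95 bp), both active in forebrain development, were 2 of 61 on their list. HES1, a Notch effector, had 5.91 and 7.92 at -219 bp, and ID1, an inhibitor of bHLH factors, had 5.80 and 11.2 at -955 bp, as 2 of 42. The nuclear receptor NR2F1 had 9.25 and 12.6 at -147 bp and was 1 of 37. HES1 and NR2F1 had no TGACAG in the window.

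Signalling genes with a site included inhibitors of receptor tyrosine kinase signalling, on lists with 1 or 2 such genes each, to be read beside 1.31% of all genes. SPRY1 had 5.83 and 11.7 at -68 bp and DUSP6, a phosphatase of ERK, had 4.73 and 6.37 at -132 bp, as 2 of 38 FGF and EGF genes. CCN2, a secreted matrix protein and a target of YAP and TEAD, had 9.88 and 13.7 at -151 bp and was 1 of 25 Hippo genes. The ephrin receptors EPHA7 (5.68 and 7.53 at +848 bp) and EPHB3 (5.26 and 7.41 at -310 bp) were 2 of 71 guidance genes. None of these 5 windows held TGACAG.

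The chromatin regulators CHD2 (6.31 and 8.57 at -22 bp) and JARID2, a component of PRC2 (7.13 and 7.98 at -636 bp, with a composite), were 2 of 62. Over all lists of transcription factors and signalling, 22 of 562 genes (3.92%) had a site. Of these sites, 14 held TGACAG and 7 the composite, beside 65.8% and 17.9% of all promoter sites. No gene had a site on the lists for FOX, NFI, EYA and DACH (0 of 33), Sonic hedgehog and ZIC (0 of 19), TGF-β and BMP (0 of 34), the cell cycle (0 of 40) and mitochondrial ribosomal proteins (0 of 78). At 1.31% of all genes, lists of this length can lack a site. Of the general lists, histones had 3 of 90 (H2BC4, H2BC21 and H4C3) and the proteasome 1 of 40 (PSMD8), all named after their values were seen. Of 5 candidate genes for restless legs syndrome named in the study, MEIS1 and MEIS2 had a site, beside 1.31% of all genes. Both encode the immunoprecipitated proteins and are also on the TALE list. The study compared a longer set of genes associated with the disorder, which this list does not cover.

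The remaining named sites with the composite lay at genes of mixed function. SKA2, which encodes a kinetochore protein and shares its site with PRR11, had 13.6 and 20.2 at -59 bp. The transcription factor MAF had 12.1 and 18.4 at -152 bp. MYLK3, a myosin light chain kinase of heart muscle, had 11 and 15.5 at -73 bp, and PPP1R15A, a stress-induced regulator of a phosphatase, had 8.92 and 12.4 at -200 bp. In all 4 the composite lay within 4 bp of the summit. All values were above the promoter median of their replicate, a description since these sites were named as the strongest with the composite.

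Promoter sites had close neighbours less often than other sites. Another reproducible site lay within 10 kb of 14 promoter sites (5.83%) and of 11.7% of the other sites (OR = 0.466 [0.249 to 0.804], Fisher's exact test, p = 0.00351). This call was lost with the TSS of all transcripts, with the stricter IDR and without replicate 1. Within 100 kb, 100 of the 240 promoter sites had another site and the highest number was 5, reached by ZNF608, SPRY1 and STON2, the last named after its values were seen.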

How the data were processed

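Chromatin of hNSC was sequenced after MEIS1/2 immunoprecipitation (2 replicates) and as Input (2 samples). According to the methods and the labels, the authors trimmed reads (cutadapt 1.16), aligned them to GRCh37 (Bowtie2 2.3.0), filtered them (SAMtools 1.2, Picard 2.15.0), called peaks against input with MACS2 at p of 0.01 and merged replicates with IDR 2.0.3. The deposited peak files give fold enrichment (a ratio), -log10 p and q values, and the deposited list a scaled IDR score and a -log10 p. Its 8 per-replicate columns were not used, nor were q values, and depth is unknown.

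TSS came from GENCODE 44 on GRCh37, which is the files' build. Motifs were counted in 500 bp windows around summits and compared by two-sided Fisher's exact tests (scipy 1.17.1), with Benjamini-Hochberg adjustment over 21 motifs, and Mantel-Haenszel tests over 5% bins of GC (statsmodels 0.14.6) as an alternative. Tests were checked on simulated windows. At each listed site, the strongest overlapping peak gave a replicate's value. Weaker promoter peaks were replicate 1 peaks outside the list that overlap a replicate 2 peak. Named were the 10 strongest members, the 15 strongest with the composite, members at genes of the transcription factor and signalling lists, and 3 sites on each side of the limit. Members, motifs and lists were chosen with earlier results of these data known. Leaving out ZNF sites was an alternative chosen after seeing the data. Results for some genes are not reported here.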

Additional observations from a re-analysis of the deposited data

How the results depend on the processing

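The comparisons were recomputed under other distances, TSS sets, windows, thresholds and comparison sets, and of 106 alternatives 87 kept the direction and the side of the threshold, or moved little. TGACAG against other sites lost its call with GC content held alike (OR 1.13) and without ZNF sites (1.24), the latter chosen after seeing the data. Strength lost its call against sites 1 to 20 kb away (0.787). Close neighbours lost it with the TSS of all transcripts (0.844), at an IDR of at most 0.001 (0.644), and without replicate 1 (leave-one-out range 0.384 to 0.683). The odds ratio for close replicate summits, never past the threshold, turned to 1.23 at 100 bp, 1.02 at a 2 kb distance and 1.0 at the stricter IDR. The number of promoter sites was 431 with all transcripts and 113 at the stricter IDR. The share of genes with a site was 2.26% with all transcripts, 1.62% at 2 kb, 1.02% at 500 bp and 0.614% at the stricter IDR, with a leave-one-out range of 1.05 to 1.70%. The share of upstream summits was 64.7% with all transcripts and 74.1% at 2 kb. Counts move by construction where the rule takes in more or fewer sites, and the cause of the other changes was not tested. The composite, CpG-rich windows and the position of TGACAG near the summit kept their calls in all alternatives run. The count of motifs that differed ranged from 10 to 14, and with GC content held alike the MEIS core, the homeodomain motif, the TATA box, NRF1 and the E-box of MYC and USF lost their calls. Strength had a leave-one-out range of 0.398 to 0.508. Leave-one-out values come from separate lists, each made of the strongest peaks of 1 replicate. With 2 replicates, the values of single sites say nothing about stability. No paired analysis was possible because the series has 1 ChIP condition, and Input enters the fold enrichments only as their background. Depth is unknown, so a promoter without a site cannot be told apart from one below detection.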

Other observations

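A few promoter sites went against the usual order of the replicates. Fold enrichment was lower in replicate 2 than in replicate 1 at 7 of 240 promoter sites, among them those of H4C3, ZSWIM4, ING3, HSPA1B, MAP3K3 and FAM111B, named after their values were seen. H4C3, a histone gene, had 10.03 and 9.36, and HSPA1B, an inducible heat shock gene, had 6.58 and 6.29.

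The 20 promoter sites with more than 1 gene within 1 kb included pairs such as COPA with NCSTN, HMBOX1 with INTS9, SKA2 with PRR11 and EIF2A with SERP1, and they can be assigned to neither gene by position. They made up 8.33% of promoter sites, and 14.2% of all canonical TSS had another within 1 kb. Promoter sites had a median width of 991 bp, compared with 1092 bp at other sites.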
